A study of Homo sapiens with 12 samples.

Results

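The genes described here are NFE2L2, which encodes the transcription factor NRF2, and 8 of its best known targets in redox defence: NQO1, GCLC, GCLM, TXNRD1, SRXN1, HMOX1, AKR1B10 and OSGIN1. They were chosen by symbol, with earlier results of these data known. All 9 are listed in both deposited tables, among 25673 genes for LS411N and 25540 for LS411N-BR. LS411N was derived from a human colon cancer, and LS411N-BR is a derivative that resists BRAF inhibitors and was kept with 4 µM of such an inhibitor in its medium. Both lines were puromycin resistant and carried a short hairpin RNA against MUC1 under doxycycline control. Each line was compared with 500 ng/ml doxycycline, which induces the hairpin, and without it, with 0.1% DMSO given as the vehicle control. That gives 4 groups of 3 libraries, labelled as triplicate cultures, and 12 libraries in all. No group received doxycycline without a MUC1 hairpin, so effects of the drug and of the hairpin cannot be told apart. The inhibitor separates the lines as well, since only LS411N-BR grew in it.

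NRF2 is made continuously and, in unstressed cells, is bound by KEAP1 and marked for degradation, so its activity is set mostly by how much protein escapes. Oxidants and electrophiles modify KEAP1, and NRF2 then pairs with a small MAF protein and binds antioxidant response elements near its target genes. The targets make glutathione, keep thioredoxin reduced, reduce quinones and carbonyls and break down heme. In colorectal and other cancers the program is studied as a source of drug tolerance. The transcript of NFE2L2 itself is not a measure of NRF2 activity.

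Antioxidant response elements share the core TGACNNNGC, in which N is any base. It was searched on both strands of the RefSeq promoter windows (GRCh38.p14, 250 bases before to 50 after a start site), which cover 7 of the 9 genes. HMOX1 and AKR1B10 had no window in that table. Of those 7, GCLM and TXNRD1 held the core. TXNRD1 had it in both of its windows, 3 times in all. Over all windows, 13.3% held it, and 16.1% of the 27305 genes had at least 1 such window. The match at GCLM and the 2 at TXNRD1 that lie wholly upstream of a start site are printed as examples of the core. Capitals mark the core and each line reads in the direction of the core.
GCLM, chr1:93909446-93909474, plus strand: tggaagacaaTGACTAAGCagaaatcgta
TXNRD1, chr12:104286920-104286948, minus strand: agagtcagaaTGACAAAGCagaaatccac
TXNRD1, chr12:104215670-104215698, plus strand: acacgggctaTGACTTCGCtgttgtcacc
In the GCLM window the core lies 34 to 26 bases before the start site, and in the TXNRD1 windows 102 to 94 and 99 to 91 bases before theirs. The first and second stretches were identical at 19 of 29 positions, including 7 of the 10 bases after the core, and the first and the third at 13 of 29. A match of these letters is a description of the window and does not show binding. NFE2L2, NQO1, GCLC, SRXN1 and OSGIN1 had no match in their windows, which says nothing of sites elsewhere.

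All values are TPM, a transcript level corrected for gene length and for the total of its library. Short RNA genes took between 47.2 and 58.0% of the TPM of a library. Each library has the same sum, so the total left for all other genes moved with that share. Replicate 3 of LS411N without doxycycline stood apart, at 47.2%, while the rest of its group had 58.0 and 57.9%. Results are therefore given as deposited and after median-of-ratios rescaling, which sets the median ratio of genes between libraries to a common level. The median log2 fold change of all genes with doxycycline was 0.08 in LS411N and 0.18 in LS411N-BR as deposited, and 0.01 and 0.00 after rescaling. MUC1 checked the hairpin. It stood at 4.64, 6.10 and 4.54 TPM without doxycycline and 0.986, 0.814 and 0.967 with it in LS411N, and at 3.69, 3.94 and 4.27 and 0.699, 0.388 and 0.440 in LS411N-BR. It fell in LS411N (log2 fold change -1.66 ± 0.13 SE, adjusted p = 3.47e-14) and in the resistant line (log2 fold change -1.72 ± 0.08 SE, adjusted p = 4.95e-108), with no overlap between groups. Of 10 colon epithelial markers, 9 had a mean of at least 1 TPM in every group, and their sum ranged from 2111 to 4325 TPM. As deposited, the sum was higher in every doxycycline library than in any other library of its line, narrowly so in LS411N (3013 against 2958 TPM). After rescaling, KRT8, KRT18, KRT19, KRT20, CDX2 and CDH17 were called higher in both lines, where 18.9% and 32.4% of all genes were. EPCAM, CDH1 and VIL1 were called in neither line on that scale, and CDX1 was too low to be tested. Fibroblast markers summed to at most 3.79 TPM and endothelial ones to at most 0.041 TPM. Of 5 blood cell markers, CD68 alone reached a mean of 1 TPM, and PTPRC, the general leukocyte marker, was at 0.00343 TPM or less. CD68 is also present in lysosomes of other cells. Its mean was 7.57 TPM without doxycycline and 18.7 with it in LS411N, and 34.8 and 70.7 in LS411N-BR. The part of these shifts in the results for the 9 genes was not tested.

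**Figure D1:**
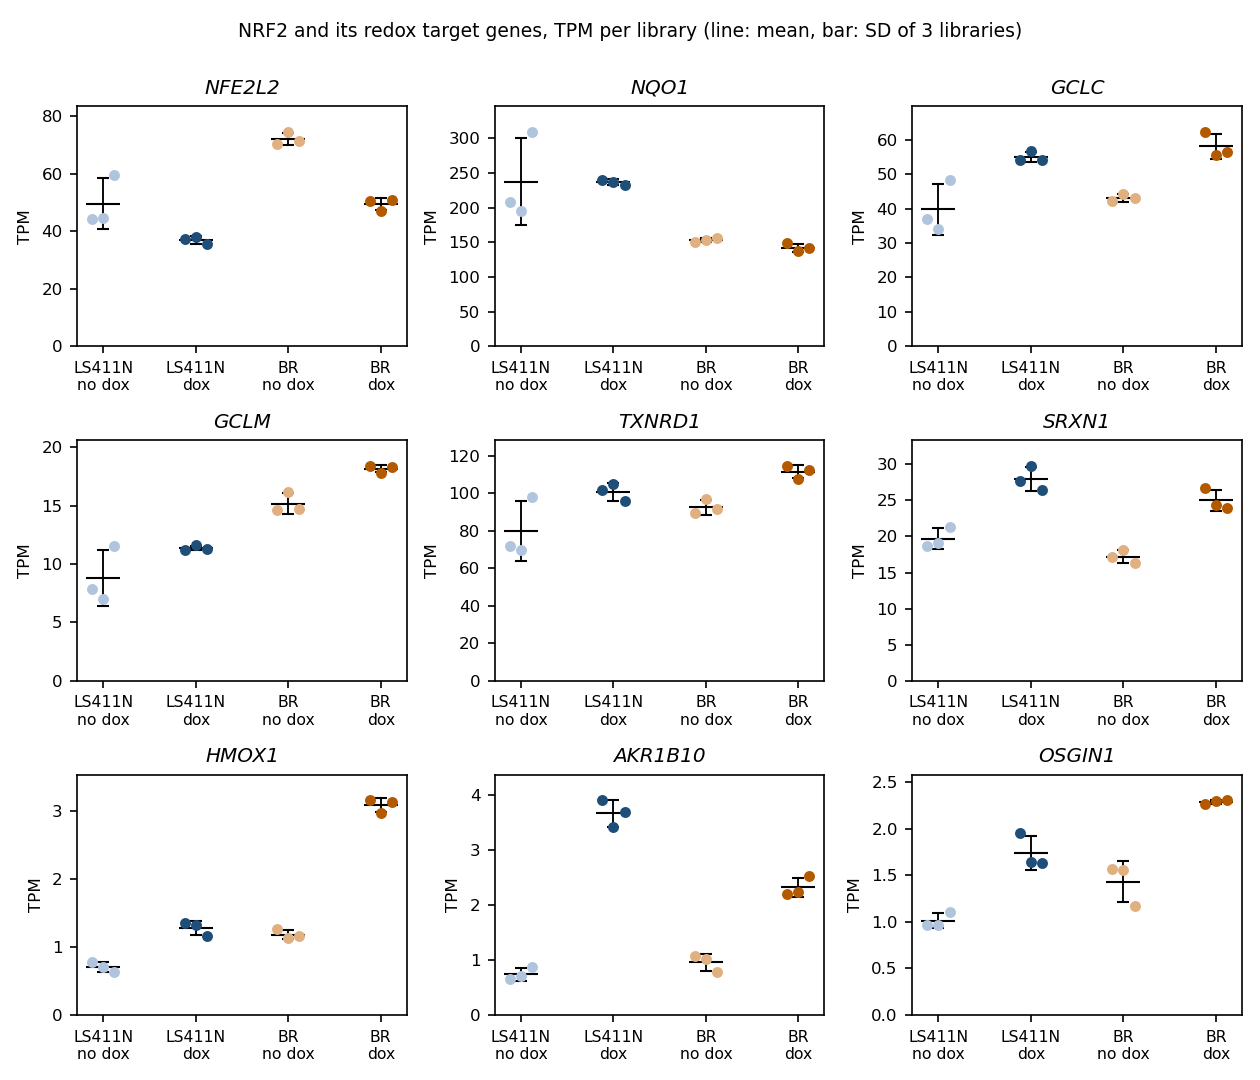
TPM of each of the 9 genes in every library, with 1 panel per gene, an axis from 0, 3 points per group, a line at the group mean and a bar for the SD (BR is LS411N-BR, dox is doxycycline). NFE2L2 was lower with doxycycline in both lines. GCLC, SRXN1, HMOX1, AKR1B10 and OSGIN1 were higher in every doxycycline library than in any other library of the same line. So were 19.3% of all genes in LS411N and 56% in LS411N-BR. The third library of LS411N without doxycycline is the highest of that group in every panel but that of HMOX1.

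With doxycycline, the means of most of the 8 target genes were higher and that of NFE2L2 was lower, in both lines. The NFE2L2 difference in LS411N was not called as deposited. In LS411N, 5 of the 9 genes rose (GCLC, SRXN1, HMOX1, AKR1B10 and OSGIN1) and none fell, where 9.75% of all 11281 genes tested rose and 3.43% fell (limma, Benjamini-Hochberg adjusted p under 0.05). That count rested on single libraries: it was 1 to 3 without any 1 of 5 libraries and 8 without the sixth, replicate 3 of the untreated group, while the number of all genes that rose ran from 523 to 5938. After rescaling, where it stayed between 5 and 7 with each library left out, 7 rose, GCLM and TXNRD1 being added, and NFE2L2 fell, against 18.9% and 15.8% of all genes. In LS411N-BR, 7 rose (every target but NQO1) and NFE2L2 fell. The background there is high, with 56.1% of 11322 genes rising and 11.1% falling. Rescaled, 5 rose (GCLC, SRXN1, HMOX1, AKR1B10 and OSGIN1) and NFE2L2 and NQO1 fell, against 32.4% and 32% of all genes. The same 5 targets were thus called higher in both lines on both scales. The median log2 fold change of the 9 genes was 0.42 in LS411N and 0.42 in LS411N-BR, beside 0.08 and 0.18 for all genes, and 0.37 and 0.21 after rescaling, beside 0.01 and 0.00. HMOX1, AKR1B10 and OSGIN1 in LS411N, and AKR1B10 in LS411N-BR, reached the 1 TPM filter only through their doxycycline libraries, so their rise is not independent of the filter.

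**Figure D2:**
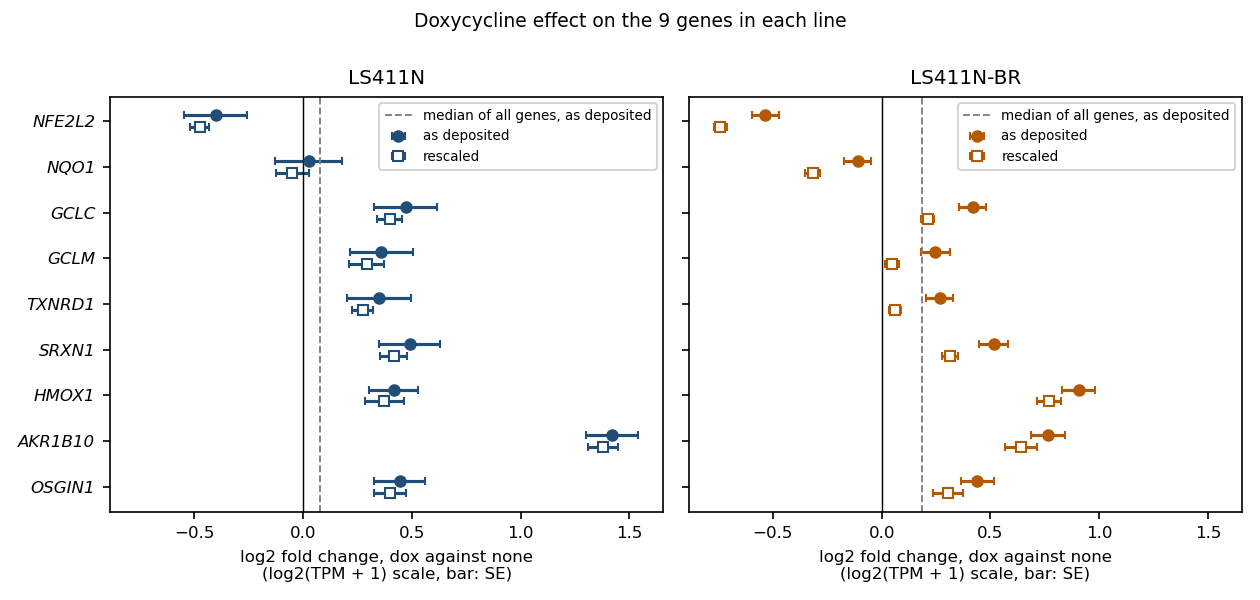
Log2 fold change with doxycycline of the 9 genes in LS411N (left) and LS411N-BR (right) on the log2(TPM + 1) scale, filled as deposited and open after rescaling, with SE bars and a dashed line at the median of all genes as deposited. NFE2L2 lies left of 0 in both lines, AKR1B10 lies furthest right in LS411N (1.42) and HMOX1 in LS411N-BR (0.91); rescaling moves every point to the left, more so in LS411N-BR.

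NFE2L2 (chr2:177227595-177392697, minus strand, GRCh38) encodes the regulator itself. Its TPM were 44.3, 44.8 and 59.8 in LS411N without doxycycline and 37.4, 38.0 and 35.5 with it. In LS411N-BR they were 70.4, 74.6 and 71.5 and 50.5, 47.2 and 50.8. Every doxycycline library lay below every other library of its line, as did 9.61% of all genes in LS411N and 12.1% in LS411N-BR. In LS411N the mean changed by -25.5%, but the difference missed the threshold as deposited (log2 fold change -0.40 ± 0.14 SE, adjusted p = 0.0576). It passed after rescaling (-0.48 ± 0.04 SE, adjusted p = 1.06e-04) and without replicate 3 of the untreated group (log2 fold change -0.26, adjusted p = 0.00193). In LS411N-BR it fell (log2 fold change -0.54 ± 0.06 SE, adjusted p = 2.34e-16), to 0.686 of its untreated level. These are bulk values, in which fewer cells of a type and less RNA per cell cannot be told apart. Set side by side on the joint rescaling and with no test, the level was 52.8 in LS411N and 73.8 in LS411N-BR without doxycycline, and 37.8 and 44.0 with it. NFE2L2 shares exon sequence with 1 annotated transcript on its own strand, AC019080.1.

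The order of the 9 levels changed little. NQO1 was the most abundant in every group, with means from 143 to 238 TPM, followed by TXNRD1. NFE2L2 came next without doxycycline, and GCLC passed it with doxycycline, in both lines. SRXN1 and GCLM followed, and HMOX1, AKR1B10 and OSGIN1 stayed between 0.704 and 3.66 TPM. Neighbours whose libraries overlapped were NFE2L2 and GCLC, and AKR1B10 and HMOX1, in LS411N without doxycycline, OSGIN1 and HMOX1 in LS411N-BR without it, and AKR1B10 and OSGIN1 in LS411N-BR with it. The ratio of TXNRD1 to NFE2L2 within a library, which any scaling leaves unchanged, was 1.61 ± 0.0453 without doxycycline and 2.73 ± 0.0347 with it in LS411N (mean ± SD, n = 3), and 1.28 ± 0.0149 and 2.26 ± 0.0326 in LS411N-BR. For GCLC over NFE2L2 it was 0.800 ± 0.0370 and 1.48 ± 0.0423 in LS411N, and 0.598 ± 0.00470 and 1.17 ± 0.0612 in LS411N-BR. Both ratios were higher in every doxycycline library of a line than in any other library of it. They share NFE2L2 as denominator, which was lower with doxycycline, so they do not by themselves show a rise of the target. NQO1, which was not called higher in either line, had the same pattern. Its ratio to NFE2L2 went from 4.74 to 6.40 in LS411N and from 2.13 to 2.88 in LS411N-BR, also without overlap.

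GCLC and GCLM encode the catalytic and the modifier subunit of glutamate-cysteine ligase, the rate-limiting enzyme of glutathione synthesis. GCLC (chr6:53497341-53616970, minus strand) measured 37.0, 34.1 and 48.2 TPM in LS411N without doxycycline and 53.9, 56.6 and 54.2 with it, and 42.1, 44.3 and 43.0 and 62.3, 55.4 and 56.4 in LS411N-BR. The groups did not overlap in either line, where 19.3% of all genes in LS411N and 56% in LS411N-BR lay wholly above. GCLC rose 1.38-fold in LS411N (log2 fold change 0.47 ± 0.15 SE, adjusted p = 0.0223) and 1.35-fold in LS411N-BR (log2 fold change 0.42 ± 0.06 SE, adjusted p = 2.46e-10), and less after rescaling (0.40 ± 0.06 SE, adjusted p = 0.00105 and 0.21 ± 0.03 SE, adjusted p = 1.80e-04). The LS411N call was lost when any library but replicate 3 of the untreated group was left out (adjusted p up to 0.214). On the rescaled values it held in 6 of 6 such fits.

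GCLM (chr1:93885205-93909456, minus strand) carries the first printed match to the core. It measured 7.89, 7.02 and 11.6 TPM without doxycycline and 11.2, 11.6 and 11.3 with it in LS411N. In LS411N-BR it measured 14.6, 16.2 and 14.7 without doxycycline and 18.4, 17.8 and 18.3 with it. In LS411N the groups overlapped, since the third untreated library reached into the doxycycline range. The difference there did not pass as deposited (log2 fold change 0.36 ± 0.15 SE, adjusted p = 0.101), but did without that library (0.55, adjusted p = 3.85e-05) and after rescaling (0.29 ± 0.08 SE, adjusted p = 0.0232). Rescaled, it was kept in only 2 of the 6 fits that leave out a library (adjusted p up to 0.0863). GCLM rose in LS411N-BR (log2 fold change 0.25 ± 0.07 SE, adjusted p = 4.66e-04), and the rise was lost after rescaling (0.05 ± 0.03 SE, adjusted p = 0.229). There were 4.57 ± 0.357 GCLC transcripts per GCLM transcript in untreated LS411N and 4.83 ± 0.0493 with doxycycline, and 2.84 ± 0.0969 and 3.19 ± 0.168 in LS411N-BR. Every LS411N-BR library had a lower ratio than every LS411N library. GCLM itself had a mean of 15.2 TPM in untreated LS411N-BR and 8.83 in untreated LS411N. These are values as deposited, normalised separately for each line and not jointly rescaled, set side by side with no test.

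TXNRD1 encodes the cytosolic thioredoxin reductase, which uses NADPH to keep thioredoxin reduced, and SRXN1 encodes sulfiredoxin, which restores overoxidised peroxiredoxins. TXNRD1 (chr12:104215779-104350305, plus strand) had 3 matches to the core in its windows. It measured 71.9, 69.7 and 98.2 TPM without doxycycline and 102, 105 and 95.7 with it in LS411N. In LS411N-BR it measured 89.4, 97.0 and 91.4 and 115, 108 and 113. The groups overlapped in LS411N through the third untreated library and were apart in LS411N-BR, where 56% of all genes lay wholly above. The difference in LS411N missed the threshold as deposited (log2 fold change 0.35 ± 0.15 SE, adjusted p = 0.123) and passed after rescaling (0.27 ± 0.05 SE, adjusted p = 0.00364), where it held with each library left out, and also without the third untreated library alone (0.50, adjusted p = 4.97e-05). In LS411N-BR TXNRD1 rose (log2 fold change 0.27 ± 0.06 SE, adjusted p = 4.66e-05), but rescaling brought it to 0.06 ± 0.03 SE, adjusted p = 0.0854.

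SRXN1 (chr20:646615-653370, minus strand) is the other member of this system. It measured 18.7, 19.0 and 21.3 TPM in untreated LS411N and 27.7, 29.8 and 26.5 with doxycycline, and 17.2, 18.2 and 16.3 and 26.7, 24.3 and 24.0 in LS411N-BR. Every doxycycline library lay above every untreated one of its line, as for 19.3% of all genes in LS411N and 56% in LS411N-BR. SRXN1 rose 1.42-fold in LS411N (log2 fold change 0.49 ± 0.14 SE, adjusted p = 0.0115) and 1.45-fold in LS411N-BR (log2 fold change 0.51 ± 0.07 SE, adjusted p = 3.92e-14), and after rescaling both calls held (0.42 ± 0.06 SE, adjusted p = 0.00161 and 0.31 ± 0.04 SE, adjusted p = 3.92e-05). As deposited, the LS411N call was lost when any library but the third untreated one was left out (adjusted p up to 0.166), while the rescaled call held in 6 of 6 fits. SRXN1 and GCLC each share exon sequence with another annotated gene on the same strand (AL121758.1 and AL033397.1), and the sources used here do not say how shared reads were counted.

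NQO1 encodes a quinone reductase and is the target most often used as a readout of NRF2. NQO1 (chr16:69706996-69726951, minus strand) was the 1 target that was not called higher in either line. It measured 208, 195 and 309 TPM in untreated LS411N and 240.2, 238 and 233 with doxycycline. In LS411N-BR the values were 151, 154 and 156 and 149, 137 and 142. The groups overlapped in LS411N, where the difference was near 0 (log2 fold change 0.03 ± 0.15 SE, adjusted p = 0.944). It was called higher there only without the third untreated library (0.23, adjusted p = 0.00586), and not on the rescaled values with any library left out (log2 fold change from -0.12 to 0.03). In LS411N-BR all doxycycline libraries lay below the others, as for 12.1% of all genes. The difference missed the threshold as deposited (log2 fold change -0.11 ± 0.06 SE, adjusted p = 0.105), passed without replicate 1 of the doxycycline group (-0.14, adjusted p = 0.0329), and passed after rescaling, on which NQO1 fell (-0.32 ± 0.03 SE, adjusted p = 2.39e-05). On the joint rescaling, untreated LS411N-BR stood at 157 and untreated LS411N at 251, side by side and untested.

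AKR1B10 encodes an aldo-keto reductase of carbonyls and retinal. AKR1B10 (chr7:134527592-134541408, plus strand) measured 0.649, 0.702 and 0.877 TPM in untreated LS411N and 3.90, 3.41 and 3.69 with doxycycline, and 1.08, 1.02 and 0.775 and 2.20, 2.24 and 2.52 in LS411N-BR. It was below or near 1 TPM in every untreated library and above 2 TPM in every doxycycline library. The rise was 4.93-fold in LS411N (log2 fold change 1.42 ± 0.12 SE, adjusted p = 6.93e-13) and 2.42-fold in LS411N-BR (log2 fold change 0.76 ± 0.08 SE, adjusted p = 1.14e-21), and it was called in both lines with any single library left out. The pseudocount of 1 TPM shrinks such low levels, and with 0.1 TPM the log2 fold changes were 2.17 and 1.20. AKR1B15, a close copy of AKR1B10 with which reads could be shared, was listed at 0.06 TPM or less in all libraries.

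HMOX1 encodes heme oxygenase 1, which breaks heme into biliverdin, iron and carbon monoxide. Besides NRF2, the heme-binding repressor BACH1 acts on the gene. HMOX1 (chr22:35380361-35394214, plus strand) measured 0.777, 0.705 and 0.629 TPM in untreated LS411N and 1.35, 1.32 and 1.16 with doxycycline. In LS411N-BR the values were 1.26, 1.13 and 1.15 and 3.15, 2.97 and 3.13. The doxycycline libraries lay above the others in both lines, as for 19.3% of all genes in LS411N and 56% in LS411N-BR. HMOX1 rose 1.81-fold in LS411N (log2 fold change 0.42 ± 0.11 SE, adjusted p = 0.00753) and 2.61-fold in LS411N-BR (log2 fold change 0.91 ± 0.08 SE, adjusted p = 5.05e-31). The LS411N call was lost without replicate 1 or replicate 2 of the doxycycline group (adjusted p = 0.0722 and 0.0597). With a pseudocount of 0.1 TPM the log2 fold changes were 0.78 and 1.31.

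OSGIN1 encodes an oxidative stress induced growth inhibitor. OSGIN1 (chr16:83948282-83966332, plus strand) measured 0.964, 0.971 and 1.11 TPM without doxycycline and 1.95, 1.64 and 1.63 with it in LS411N, and 1.56, 1.55 and 1.17 and 2.26, 2.30 and 2.30 in LS411N-BR. The groups were apart in both lines, where 19.3% of all genes in LS411N and 56% in LS411N-BR lay wholly above. The third untreated LS411N-BR library was the lowest of its group. OSGIN1 rose 1.72-fold in LS411N (log2 fold change 0.44 ± 0.12 SE, adjusted p = 0.00568) and 1.60-fold in LS411N-BR (log2 fold change 0.44 ± 0.08 SE, adjusted p = 4.20e-08). Without replicate 1 of the doxycycline group the LS411N call was lost (adjusted p = 0.0925). With a pseudocount of 0.1 TPM the log2 fold change in LS411N was 0.72. OSGIN1 overlaps an annotated gene on the same strand, AC009119.2.

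Whether doxycycline acted differently in the lines was tested in 1 limma fit of the 12 libraries, as the interaction of line and doxycycline. AKR1B10 rose less in LS411N-BR than in LS411N (difference of log2 fold changes -0.66 ± 0.13 SE, adjusted p = 0.00537), and HMOX1 rose more (difference of log2 fold changes 0.49 ± 0.12 SE, adjusted p = 0.0247). These are 1 of 9 lower and 1 of 9 higher, where 0.728% and 1.39% of 11674 genes were called. In each line AKR1B10 reached the 1 TPM filter only through its doxycycline libraries, so its call is not independent of the filter. Neither gene reached the filter of 5 TPM. The AKR1B10 difference was called with each of the 12 libraries left out, on both scales (adjusted p up to 0.0279 as deposited). That of HMOX1 was called in 4 of those 12 fits as deposited and 2 of 12 rescaled (adjusted p up to 0.0861 and 0.0819), and was lost with a pseudocount of 0.1 TPM (0.54, adjusted p = 0.261). The other 7 genes did not pass as deposited, with differences from -0.14 (NQO1) to 0.02 (SRXN1). A p above the threshold does not show that the lines responded alike. After rescaling, NFE2L2 (-0.26 ± 0.05 SE, adjusted p = 0.00501) and TXNRD1 (-0.21 ± 0.06 SE, adjusted p = 0.0321) were also called lower in LS411N-BR, the NFE2L2 difference in 12 of 12 fits without a library and the TXNRD1 one in 2 of 12. In that scaling 4.33% of all genes were called higher and 5.81% lower.

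**Figure D3:**
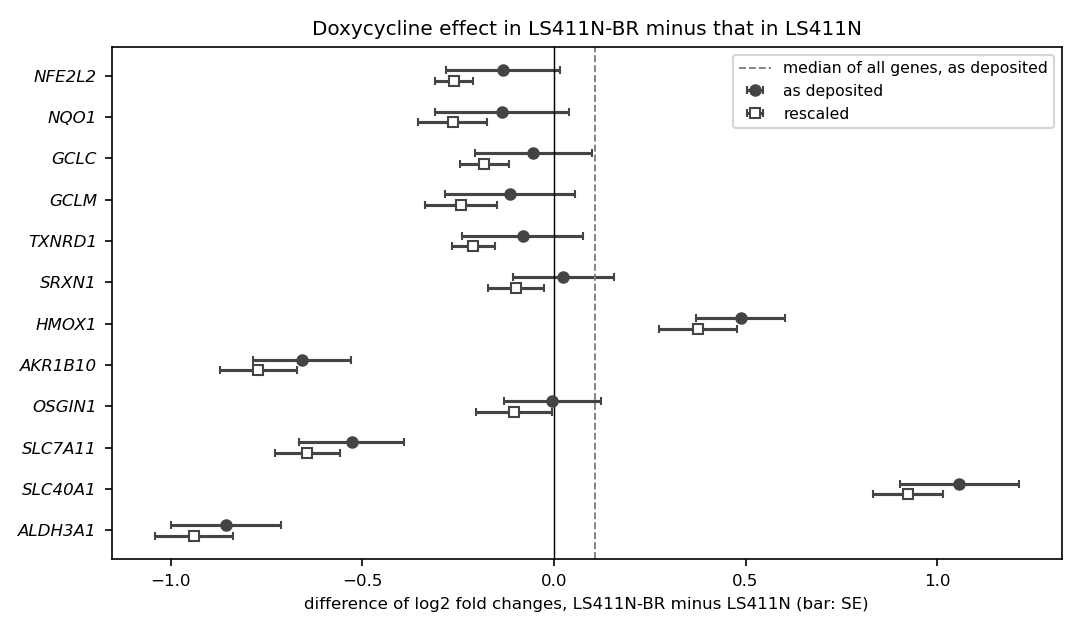
Doxycycline effect in LS411N-BR minus that in LS411N, on the log2(TPM + 1) scale with SE bars, for the 9 genes and the 3 other pathway genes called as deposited, filled as deposited and open after rescaling. AKR1B10, SLC7A11 and ALDH3A1 lie to the left of 0, HMOX1 and SLC40A1 to the right.

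A list of 69 other genes of the pathway, of which 65 were tested, shows how far the pattern of the 9 reached. In LS411N, 13 rose and none fell as deposited (24 and 3 rescaled). In LS411N-BR, 45 rose and 5 fell (31 and 16 rescaled). The shares of all genes to set beside these and the counts by role are, for higher calls, 9.75% in LS411N and 56.1% in LS411N-BR as deposited, and 18.9% and 32.4% rescaled. For lower calls they are 3.43% in LS411N and 11.1% in LS411N-BR as deposited, and 15.8% and 32% rescaled. Groups without overlap lay wholly above for 19.3% of all genes in LS411N and 56% in LS411N-BR, and wholly below for 9.61% and 12.1%. Leaving out 1 library moved the count of higher genes in LS411N to 4 or 5 without any 1 of 5 libraries and to 54 without the sixth, replicate 3 of the untreated group. After rescaling it moved from 24 to between 16 and 29. The genes named in what follows are up to 4 per role and line with the smallest adjusted p, and their values are log2 fold changes as deposited. KEAP1, NFE2L1, GPX2, TXN, PRDX2, FECH, AKR1A1, SOD2 and GPX1 lie outside that rule and were named after their values were seen. Of the 65 genes, 12 were called higher in both lines and 1, ALDH3A1, in opposite directions; after rescaling 18 were higher in both and 3 lower in both. The cores printed above had counterparts in the promoter windows of 17 of the 53 list genes that have one (32.1%, beside 16.1% of all genes). The list genes have more windows each, and by window the shares were 20.7% of 82 and 13.3% of 35116.

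Among the proteins that control NRF2, 2 of 10 rose in LS411N and 9 of 10 in LS411N-BR, where 56.1% of all genes did. After rescaling, 3 rose in LS411N, and 5 rose in LS411N-BR, where NFE2L1, a relative of NFE2L2, fell (-0.11 ± 0.03 SE, adjusted p = 0.0101). SQSTM1, whose product p62 binds KEAP1 and is itself an NRF2 target, rose by 0.86 in LS411N and 1.10 in LS411N-BR. Its mean went from 132 ± 15.4 to 239.8 ± 21.0 TPM in LS411N and from 108 ± 2.09 to 233 ± 17.0 TPM in LS411N-BR, with no overlap between groups. MAFF, a small MAF partner of NRF2, rose by 0.58 in LS411N and 0.49 in LS411N-BR. MAFK, another small MAF, rose in LS411N-BR (0.43), as did BTRC (0.35), a substrate receptor for a second route of NRF2 degradation. KEAP1 did not pass in LS411N (0.14, adjusted p = 0.577) and rose in LS411N-BR (0.25), a call lost after rescaling (0.05 ± 0.04 SE, adjusted p = 0.284).

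Of 12 tested genes of glutathione supply and use, 1 rose in LS411N, and 8 rose and 2 fell in LS411N-BR (3 and 1, and 4 and 4, after rescaling). The rise in LS411N was that of GSR, glutathione reductase, which also rose in LS411N-BR (0.47 in LS411N and 0.41 in LS411N-BR). SLC7A11, the cystine importer that supplies cysteine for glutathione, had the smallest adjusted p of the role in LS411N-BR. It measured 39.4, 46.1 and 51.3 TPM in untreated LS411N and 38.5, 41.0 and 39.6 with doxycycline, and 20.6, 22.0 and 21.6 and 12.4, 12.3 and 13.3 in LS411N-BR. It fell in LS411N-BR (log2 fold change -0.72 ± 0.07 SE, adjusted p = 8.41e-26) and did not pass in LS411N as deposited (log2 fold change -0.19 ± 0.14 SE, adjusted p = 0.457), although rescaled it did (-0.26 ± 0.07 SE, adjusted p = 0.0184). The difference between the lines passed as deposited (difference of log2 fold changes -0.53 ± 0.14 SE, adjusted p = 0.0465) and after rescaling (-0.64 ± 0.08 SE, adjusted p = 4.05e-04). As deposited it was lost in 10 of 12 fits that leave out a library. GPX2, the intestinal glutathione peroxidase, also fell in LS411N-BR (-0.31). GLRX, glutaredoxin, and GSS, glutathione synthetase, rose there (0.55 and 0.39).

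In the thioredoxin system, 1 of 9 genes rose in LS411N and 5 of 9 in LS411N-BR, close to the 9.75% and 56.1% of all genes. After rescaling, 3 rose in LS411N, and 4 rose and 2 fell in LS411N-BR. TXNIP, an inhibitor of thioredoxin, rose in both lines (0.79 in LS411N and 0.46 in LS411N-BR). TXN, thioredoxin itself, was not called in either line as deposited (0.08 in LS411N and -0.05 in LS411N-BR) and was called lower in LS411N-BR after rescaling (-0.26 ± 0.05 SE, adjusted p = 6.74e-04), as was PRDX2, a peroxiredoxin (-0.30 ± 0.04 SE, adjusted p = 6.36e-05). PRDX6, PRDX1 and TXN2, peroxiredoxins and the mitochondrial thioredoxin, rose in LS411N-BR by 0.43, 0.30 and 0.39, and the PRDX1 call was lost after rescaling (0.09 ± 0.04 SE, adjusted p = 0.0802). Of 7 genes that supply NADPH, 1 rose in LS411N, and 4 rose and 1 fell in LS411N-BR (2 and 1, and 3 and 3, after rescaling). ME1, malic enzyme 1, rose in both lines (0.44 in LS411N and 0.35 in LS411N-BR). IDH1, TKT and PGLS rose in LS411N-BR (0.34, 0.29 and 0.25), and the PGLS call was lost after rescaling (0.04 ± 0.05 SE, adjusted p = 0.414).

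Heme and iron genes rose in 3 of 9 cases in LS411N and 7 of 9 in LS411N-BR, with none falling as deposited (4, and 6 with FECH, ferrochelatase, falling, after rescaling). SLC40A1 encodes ferroportin, the iron exporter. It measured 3.62, 3.72 and 5.30 TPM in untreated LS411N and 4.83, 5.14 and 5.60 with doxycycline, which overlapped, and 6.68, 7.87 and 7.00 and 20.7, 18.5 and 19.0 in LS411N-BR, which did not. It rose 2.70-fold in LS411N-BR (log2 fold change 1.32 ± 0.07 SE, adjusted p = 1.17e-82), did not pass in LS411N (log2 fold change 0.26 ± 0.14 SE, adjusted p = 0.230), and the difference passed (difference of log2 fold changes 1.06 ± 0.16 SE, adjusted p = 2.24e-04). FTH1, the ferritin heavy chain, rose by 0.44 in LS411N and 0.27 in LS411N-BR as deposited, and the LS411N-BR call was lost after rescaling (0.06 ± 0.05 SE, adjusted p = 0.361). BLVRB, biliverdin reductase B, rose by 0.47 in LS411N and 0.30 in LS411N-BR, and SLC48A1, a heme transporter, by 0.41 in LS411N and 0.44 in LS411N-BR, the LS411N call of the second being lost after rescaling (0.34 ± 0.12 SE, adjusted p = 0.0627). HMOX2, the constitutive heme oxygenase, and BLVRA, biliverdin reductase A, rose in LS411N-BR (0.50 and 0.43).

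Carbonyl reduction and other detoxification had 5 of 14 tested genes higher in LS411N, and 11 higher and 2 lower in LS411N-BR (8 and 1, and 8 and 3, after rescaling). ABHD4, a lipid hydrolase, rose by 0.87 in LS411N and 1.01 in LS411N-BR, and ALDH3A2, the fatty aldehyde dehydrogenase, by 0.59 in LS411N and 0.61 in LS411N-BR. NQO2, the paralog of NQO1, rose by 0.42 in LS411N and 0.32 in LS411N-BR. ALDH3A1 encodes an aldehyde dehydrogenase and was the 1 gene of the list called in opposite directions. It measured 25.7, 26.0 and 31.0 TPM in untreated LS411N and 39.7, 41.3 and 34.9 with doxycycline, and 4.94, 4.60 and 4.15 and 3.03, 3.59 and 3.19 in LS411N-BR, with no overlap within a line. It rose in LS411N (log2 fold change 0.47 ± 0.14 SE, adjusted p = 0.0177) and fell in LS411N-BR (log2 fold change -0.38 ± 0.07 SE, adjusted p = 5.33e-07), and the difference passed (difference of log2 fold changes -0.86 ± 0.14 SE, adjusted p = 0.00108). PIR, pirin, rose by 0.38 in LS411N and 0.57 in LS411N-BR, and its LS411N call was lost after rescaling (0.32 ± 0.14 SE, adjusted p = 0.104). UGDH, UDP-glucose dehydrogenase, rose in LS411N-BR (0.44) and AKR1A1, an aldehyde reductase, fell there (-0.19). AKR1C1, AKR1C2 and AKR1C3 are close copies of each other, so their separate values are uncertain. Of 4 tested antioxidant enzymes outside these roles, none passed in LS411N as deposited and CAT, catalase, rose in LS411N-BR (0.36). After rescaling, CAT rose in both lines (0.28 in LS411N and 0.16 in LS411N-BR), and SOD2, the mitochondrial superoxide dismutase, and GPX1, a glutathione peroxidase, fell in LS411N-BR (-0.25 and -0.24).

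**Figure D4:**
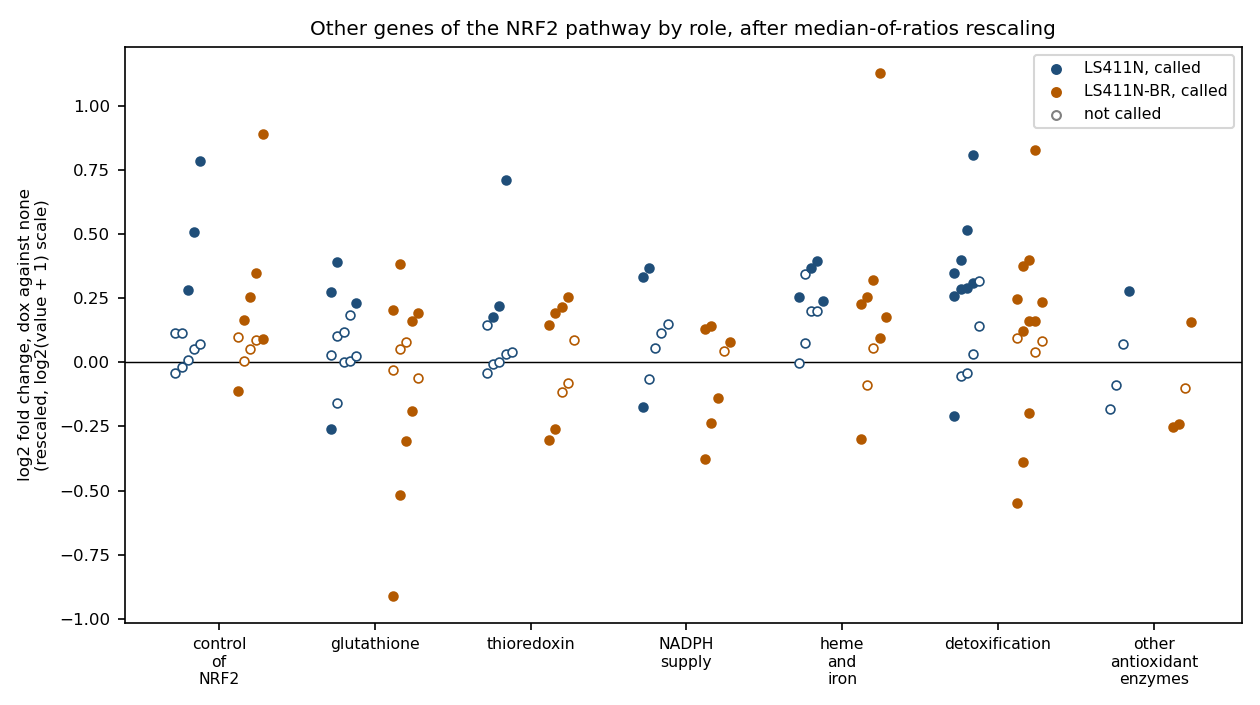
Log2 fold change with doxycycline after rescaling of the 65 tested pathway genes other than the 9, by role, in LS411N (blue) and LS411N-BR (orange), filled where called at an adjusted p under 0.05. Every role holds points on both sides of 0 in LS411N-BR; the highest point is SLC40A1 and the lowest SLC7A11, both in LS411N-BR.

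Among 8152 protein-coding genes with a mean of at least 5 TPM in a group, those whose log2 level, jointly rescaled over the 12 libraries, was most like that of NFE2L2 were CTBP2, GLCE and CRLF3 (Pearson r = 0.993 for each). For AKR1B10 they were CAST (r = 0.973), ANXA1 (0.964) and PDP1 (0.963). These libraries share 4 groups and their scaling, so the values describe the pattern and carry no test. GLCE went from 10.8 to 4.35 TPM in LS411N and from 20.0 to 7.32 TPM in LS411N-BR, and ANXA1 from 20.8 to 116 and from 24.5 to 93.4 TPM.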

How the data were processed

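The 12 RNA-seq libraries were grouped by line and doxycycline, 3 per group, from the sample titles. RNA was purified with an RNeasy Plus Mini kit and libraries were made with a TruSeq Stranded mRNA kit, per the labels' protocols. The authors deposited TPM per gene, in 1 table per line, and every library has the same sum, 1e+06. STAR, DESeq2 and GRCh38 are named, without roles, per the submitters' processing notes. The program that made the TPM, its annotation and its use of strand are not stated in the sources used here. Read totals and thus depth are unknown, and no counting interval is given. The tables were normalised separately, so levels of the lines are set side by side without a test.

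For each line, limma 3.58.1 (R 4.3.3) was fitted to log2(TPM + 1) with a trend in intensity and two-sided tests. A gene entered when 3 or more of the compared libraries reached 1 TPM. The call was an adjusted p (Benjamini-Hochberg, all genes tested) under 0.05. The difference between the lines is an interaction, fitted over the 12 libraries together. The log2 scale with a pseudocount of 1 TPM understates changes of low genes. For LS411N-BR, limma estimated infinite prior degrees of freedom, which means that each SE is that of the trend at the gene's level. The p-values cover the spread between the triplicate cultures, and the sources used here do not say whether these were grown at separate times.

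Alternatives were a pseudocount of 0.1 TPM, no filter or one of 5 TPM, median-of-ratios rescaling, rescaling over shared genes of at least 1 TPM, no trend, robust moderation, a spread from all 12 libraries, the replicate number as a block and leaving out each library. Rescaling over protein-coding genes, and median-of-ratios rescaling with each library left out, were added after seeing the data. The members, the pathway lists and the tests were chosen with earlier results of these data known. Named were MUC1, the 9 genes, up to 4 called genes per pathway role and line with the smallest adjusted p, any called in opposite directions, and the 3 genes most correlated with NFE2L2 and with AKR1B10. The result of 1 gene counted in the pathway lists is not reported here. Positions are from GENCODE on GRCh38 and promoter windows from RefSeq on GRCh38.p14.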

Additional observations from a re-analysis of the deposited data

Results flagged for a closer look

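The doxycycline effect differed between the lines, by the interaction tested in 1 limma fit, for 5 of the genes examined. The differences are log2 fold changes of LS411N-BR minus those of LS411N as deposited. For AKR1B10 the difference was -0.657 and for HMOX1 0.488. Among the other pathway genes it was 1.06 for SLC40A1, -0.528 for SLC7A11 and -0.855 for ALDH3A1. Those of AKR1B10, SLC40A1 and ALDH3A1 were called under every setting that tested them. AKR1B10 reached the 1 TPM filter in each line only through its doxycycline libraries and did not reach that of 5 TPM. Its call is thus not independent of the filter. As deposited, the differences of HMOX1 and SLC7A11 lost their call when most single libraries were left out. After rescaling that of HMOX1 again did so, while that of SLC7A11 was called with all 12 libraries.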

How the results depend on the processing

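All counts are of genes called higher and lower with doxycycline, first of the 9 genes, then of the other pathway genes. As deposited they were 5 and 0, and 13 and 0 in LS411N, 7 and 1, and 45 and 5 in LS411N-BR, and for the difference between lines 1 and 1, and 1 and 2. In LS411N, median-of-ratios rescaling gave 7 and 1, and 24 and 3, protein-coding rescaling 7 and 1, and 26 and 1, and a spread from all 12 libraries 7 and 1, and 24 and 0. Shared-gene rescaling, no trend and robust moderation each added 1 lower gene of the 9. No filter gave 4 and 0, and 4 and 0, and the 5 TPM filter 2 and 1, and 13 and 0. In LS411N-BR these gave 5 and 2, and 31 and 16 (median of ratios), 6 and 2, and 35 and 15 (protein-coding), 5 and 1, and 38 and 3 (all 12 libraries), and 4 and 1, and 38 and 4 (5 TPM filter). For the difference, median of ratios gave 1 and 3, and 1 and 12, protein-coding rescaling 1 and 2, and 1 and 8, the pseudocount of 0.1 TPM 0 and 1, and 1 and 1, no filter 1 and 1, and 1 and 1, and the 5 TPM filter 0 and 0, and 1 and 1. Over all genes, median of ratios moved the higher and lower calls from 1100 and 387 to 2127 and 1787 in LS411N, from 6351 and 1252 to 3671 and 3623 in LS411N-BR, and from 162 and 85 to 506 and 678 for the difference. The cause was not tested.

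Leaving out single libraries, as deposited or after median-of-ratios rescaling, gave in LS411N 1 to 8 of the 9 genes higher and 0 to 1 lower, with 4 to 54 other genes higher and 0 to 5 lower. The highest of both higher counts came without the third untreated library, where 5938 of all genes were higher. In LS411N-BR the ranges were 5 to 7 and 1 to 2, and 27 to 45 and 3 to 17. For the difference they were 0 to 1 and 1 to 6, and 1 to 1 and 1 to 21.

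Signs were compared with the fit as deposited, and against it no effect on the 9 genes changed sign where either fit called it. Between alternatives signs did differ. With single libraries left out, NQO1 in LS411N ran from -0.12 to 0.23. The differences between lines ran from -0.21 to 0.046 for GCLC, -0.33 to 0.018 for GCLM and -0.25 to 0.0068 for TXNRD1. Each of these was called in at least 1 such fit. Among the other pathway genes, a change of sign from the fit as deposited is given where the gene was called on either side of it. In LS411N-BR, median-of-ratios rescaling turned NFE2L1 (-0.11), GPX4 (-0.028), MGST2 (-0.061), TALDO1 (-0.14) and EPHX1 (-0.20), and protein-coding rescaling MGST2 (-0.020), TALDO1 (-0.098) and EPHX1 (-0.16). With single libraries left out, as deposited or rescaled, values ran from -0.13 to 0.13 for NFE2L1, -0.057 to 0.21 for GPX4, -0.076 to 0.17 for MGST2, -0.17 to 0.095 for TALDO1, -0.23 to 0.016 for EPHX1, -0.025 to 0.21 for MAFG, -0.12 to 0.13 for ABCB6 and -0.15 to 0.15 for SOD1. The CAT difference ran from -0.15 to 0.11.

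The replicate numbers were not taken as pairs: deviations of same-numbered libraries correlated at 0.00622 to 0.173 in LS411N and 0.00307 to 0.0230 in LS411N-BR. With the replicate number as a block, LS411N had 3 and 0, and 5 and 0 calls, with GCLC (adjusted p = 0.132) and SRXN1 (adjusted p = 0.0985) no longer passing in limma. LS411N-BR had 7 and 1, and 42 and 4, and the difference 0 and 1, and 1 and 1. Depth is unknown, so what low counts limit cannot be given.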
